A study of Mus musculus with 12 samples.

Results

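Adamdec1 is 1 of the 13016 genes with a row in a table of RPKM values (read counts scaled by gene length and by library size) from mouse early thymic precursors. It was chosen because its level in these libraries was already known to differ widely between the groups, so its own values and fold changes are given as a description, with no test. The early thymic precursor is the Kit-bearing progenitor from which T-cell development in the thymus proceeds. Each of the 12 libraries came from 100 cells sorted by flow cytometry, whose messenger RNA was amplified over its full length with the SMARTer method, and there were 4 libraries in each of 3 groups. All mice were of the C57BL/6 strain and all carried loxP-flanked (fl/fl) alleles of both Ezh2, which encodes a Polycomb histone methyltransferase, and Runx1, which encodes a transcription factor of blood cells. The control group had these floxed alleles and no recombinase. The group called dKO carried Rag1Cre+ in addition, a recombinase expressed from the Rag1 gene, so that deletion depends on a cell having switched on Rag1. The group called dKO_Flt3ITD carried the floxed alleles, Rag1Cre+ and a heterozygous internal tandem duplication of the receptor kinase gene Flt3 (Flt3 ITD/+), an allele known from human acute leukaemia. The labels do not tie the 4 replicates of a group to different mice, so the p-values below measure the spread between these libraries, which may be technical.

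Adamdec1 encodes ADAM-like decysin-1, a soluble metalloprotease. Most ADAM proteins are anchored in the membrane and shed the outer parts of other membrane proteins. Adamdec1 lacks the transmembrane and cytoplasmic segments and most of the domains that follow the protease, and is secreted. It is known from macrophages and maturing dendritic cells of lymphoid tissue and from the lamina propria of the gut. The ADAM family members most often studied in T-cell development are Adam10, which cleaves Notch receptors, and Adam17, which releases tumour necrosis factor and EGF-family ligands.

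In GENCODE mouse release 21 on GRCm38, the assembly also called mm10, Adamdec1 lies on the minus strand of chromosome 14 from 68563380 to 68582095, a span of 18716 bases. It has 1 annotated transcript, which is protein coding with 14 exons and a spliced length of 2442 bases. The deposited values imply that the authors used a length of 2412 bases. No other annotated gene overlaps it (0 genes), so its reads are not shared with a gene on the opposite strand. Its nearest protein-coding neighbours on both sides are ADAM genes. The gap to Adam7 on the downstream side is 29.6 kb, and the gap to Adam28 on the upstream side is 23.9 kb.

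The reads behind the values could be recovered as whole numbers and came to between 13624672 and 33994953 per library. The median gene of a library stood at 5.34 to 6.54 RPKM. Ezh2 levels were 32.8 to 45.7 RPKM in control, 16.9 to 29.8 in dKO and 12.03 to 24.6 in dKO_Flt3ITD libraries, and Runx1 levels were 16.3 to 25.3, 35.9 to 58.2 and 32.6 to 58.8. A whole-gene value can hold reads from exons that are not deleted, so it checks neither the Ezh2 nor the Runx1 allele. In the limma test described below, neither gene passed against control. In dKO and dKO_Flt3ITD the limma adjusted p was 0.470 and 0.0949 for Ezh2, and 0.184 and 0.124 for Runx1. Of the 15 markers listed for early thymic precursors, 14 had a row, among them Kit and Ptprc. Their summed level was 685 to 854 RPKM in control, 524 to 665 in dKO and 528 to 574 in dKO_Flt3ITD libraries. The libraries dKO_Flt3ITD 4 and dKO_Flt3ITD 1 stood apart from the others in markers of other blood cells, and the log2 differences, the spread and the likeness results of Adamdec1 that rest on the dKO_Flt3ITD group are therefore also given with libraries left out.

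Adamdec1 was close to silent in control precursors and was among the most abundant messages of the dKO precursors. In the 4 control libraries its level was 0.214, 0.832, 2.73 and 1.13 RPKM. These values rest on 14, 40, 164 and 79 reads, so the transcript was detected in every control library, at a level below that library's median gene. In the dKO libraries its level was 1389.5, 1076, 1536 and 2347 RPKM, from 55979, 39534, 104560 and 105421 reads. All 4 dKO libraries lay far above all 4 control libraries, and the lowest dKO value was 394.8 times the highest control value. Because libraries were made from bulk sorted cells, a larger share of cells with the transcript cannot be told apart from more transcript per cell.

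The group means were 1.23 ± 1.07 RPKM in control and 1587 ± 542 RPKM in dKO (SD, n = 4 each), a ratio of means of 1294. On the scale of log2(RPKM + 1) the difference was 9.54 with a standard error of 0.79, the highest of the 10690 genes that were tested, at rank 1. The groups did not overlap for Adamdec1, and dKO libraries lay wholly above control libraries for 3.93% of tested genes. Nothing is read from that share here, because the gene was chosen on this contrast. The size of the fold depended on how low values were treated. With a pseudocount of 10 the log2 difference was 7.10, with a pseudocount of 0.1 it was 10.57, and by voom on the recovered reads it was 10.79.

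In the dKO_Flt3ITD libraries the level was 196, 1299, 662 and 29.8 RPKM, from 12879, 58422, 39445 and 1742 reads. All 4 libraries were above every control library, with the lowest of them at 10.9 times the highest control value. Adamdec1 expression was therefore present in all 8 libraries with Rag1Cre+, but its amount differed between the 4 libraries with the Flt3 ITD allele by 43.7 times from lowest to highest. Without dKO_Flt3ITD 4 the ratio was 6.63, without dKO_Flt3ITD 2 it was 22.3, and in dKO it was 2.18. In control it was 12.7, at levels that rest on few reads. The dKO_Flt3ITD mean was 547 ± 569 RPKM (SD, n = 4), or 296 ± 328 RPKM without dKO_Flt3ITD 2 (n = 3), and the geometric mean, which is less governed by the highest library, was 266 RPKM against 1524 RPKM in dKO.

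**Figure D1:**
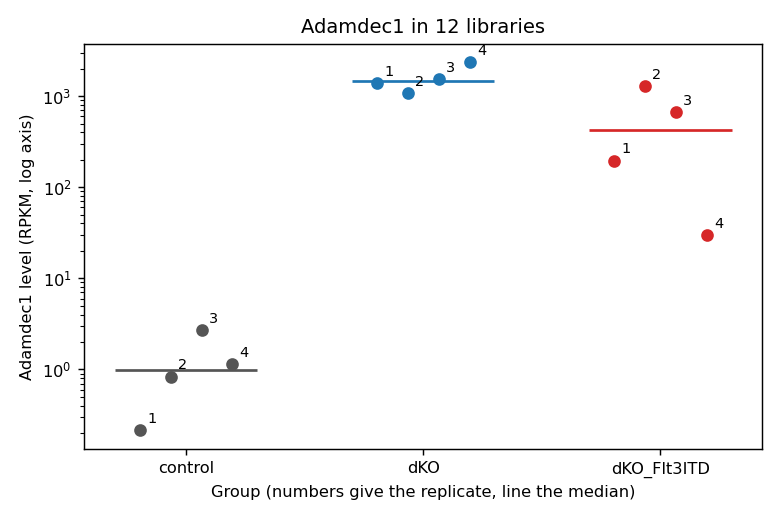
Adamdec1 level in RPKM on a log axis for 12 libraries, with 1 numbered point per library and a line at the median of each group. Control points lie between 0.214 and 2.73 RPKM, dKO points between 1076 and 2347, and dKO_Flt3ITD points spread from 29.8 to 1299.

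Against control, the log2 difference of Adamdec1 in dKO_Flt3ITD was 7.03 with a standard error of 0.79, again at rank 1 of 10690 tested genes. Groups lay apart in this direction for 4.16% of tested genes. Both comparisons use the same 4 control libraries. Leaving out dKO_Flt3ITD 4 raised the difference to 8.08, and leaving out dKO_Flt3ITD 2 lowered it to 6.28. With each of the 12 libraries left out in turn, it lay between 6.28 and 8.08. A pseudocount of 10 gave 4.70, a pseudocount of 0.1 gave 8.05, and voom on the recovered reads gave 8.23.

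Between the 2 mutant groups the difference was -2.50 on the log2 scale, dKO_Flt3ITD minus dKO, with a standard error of 0.79. The standard error comes from a spread that is shared by all 3 groups and that limma shrinks towards the spread of other genes, so it is not that of the dKO_Flt3ITD libraries alone. Of all tested genes, 22 had a lower value. By limma 0% of genes were called in this comparison, with 824 genes at an unadjusted p under 0.05 and 0 by voom. The groups overlapped: dKO_Flt3ITD 2, at 1299 RPKM, was above dKO 2, at 1076 RPKM, while the other 3 dKO_Flt3ITD libraries were below every dKO library. The size of the difference depended on single libraries. It was -1.46 without dKO_Flt3ITD 4 and -3.26 without dKO_Flt3ITD 2. The order of the group levels was dKO, then dKO_Flt3ITD, then control, and the upper pair in that order overlapped.

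Set against the other genes of the same library, Adamdec1 moved from the lower part of the expressed genes to near the top. By RPKM it took rank 10782, 9849, 8131 and 9141 of 13016 in the control libraries. In the dKO libraries it took rank 115, 93, 67 and 37. In the dKO_Flt3ITD libraries the ranks were 728, 83, 155 and 2623. Library dKO_Flt3ITD 2 thus ranked Adamdec1 within the dKO range, and dKO_Flt3ITD 4 ranked it below 2622 other genes.

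Counted in reads, without division by length, the gene stood higher in all mutant libraries except dKO_Flt3ITD 4. It was at rank 35, 20, 14 and 6 in dKO and at rank 397, 20, 69 and 2766 in dKO_Flt3ITD. In dKO 4 it took 0.553% of all recovered reads (95% Wilson interval 0.550% to 0.557%). In dKO_Flt3ITD 4 the share was 0.00775% (0.00739% to 0.00812%), and in control 1 it was 5.95e-05% (3.54e-05% to 9.98e-05%). These intervals cover counting error only, since amplified reads without molecular identifiers are not independent molecules.

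By mean level in dKO, Adamdec1 was gene 72 of the table. The genes next above it were Rpl10a, at 1643 RPKM, and Rps12, Rps24, Ly6a and Rpl17, at up to 1703 RPKM. The genes next below were Hmgn2, a nucleosome-binding protein gene at 1549.5 RPKM, Gpx1, a glutathione peroxidase gene at 1542 RPKM, and Rpl6, Rpl38 and Rpl27, down to 1513 RPKM. These means differ from that of Adamdec1 by less than its own SD of 542 RPKM, so its place among them is not resolved. A secreted protease was thus at the level of ribosomal protein genes, whose own values are uncertain because near-identical pseudogenes may share their reads. By mean level it was gene 210 in dKO_Flt3ITD and gene 10014 in control.

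A ratio to a gene of the same library removes the library's scaling. Ptprc, which encodes the pan-leukocyte surface phosphatase CD45, was taken for this purpose. Its own means were 149, 102.5 and 81.3 RPKM in control, dKO and dKO_Flt3ITD, which raises the mutant ratios. The ratio of Adamdec1 to Ptprc was 0.00132, 0.00639, 0.0261 and 0.00568 in control. It was 15.3, 8.999, 15.5 and 23.3 in dKO, and 3.45, 17.5, 7.16 and 0.293 in dKO_Flt3ITD. Kit had closer means of 58.1, 52.5 and 49.8 RPKM. The ratio of Adamdec1 to Kit was 0.00306 to 0.0610 in control, 15.8 to 61.4 in dKO, and 4.96, 31.6, 8.41 and 0.745 in dKO_Flt3ITD. The pattern over libraries was that of the RPKM values: dKO_Flt3ITD 2 lay within the dKO range, and dKO_Flt3ITD 4 was the lowest mutant library.

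On the scale of log2(RPKM + 1), Adamdec1 varied more between the dKO_Flt3ITD libraries than between those of the other groups. The SD was 2.37 there, against 0.47 in dKO and 0.67 in control. The pseudocount of 1 narrows the control SD, because the control values were 0.214 to 2.73 RPKM. Among the 991 genes with a mean of at least 100 RPKM in dKO_Flt3ITD, the median SD was 0.58, and 5 genes had a larger SD than Adamdec1. These were Wfdc17, Ly86, Anxa2, Mpo and Cd74, named after their values were seen. Among the 976 such genes in dKO the median SD was 0.41, and 357 genes had a larger SD than Adamdec1. The spread in dKO_Flt3ITD rested in large part on library 4. Without it the SD of Adamdec1 was 1.38, the median SD of 1014 genes was 0.54, and 16 genes had a larger SD. Without library 1, 2 or 3 the SD was 2.88, 2.23 or 2.70, and 2, 11 or 6 genes had a larger one. Scaling the libraries by the median ratio over genes left the SD at 2.37.

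Library dKO_Flt3ITD 4, which had the least Adamdec1 of the mutants, had the highest sum of the granulocyte marker list. The granulocyte list has 10 symbols, of which 6 had a row (Camp, Ngp, S100a8 and S100a9 had none). Their summed level was 1337 RPKM in dKO_Flt3ITD 4, against 70.9 to 311 RPKM in the other dKO_Flt3ITD libraries, 34.3 to 143 in dKO and 71.1 to 244 in control. Mpo, the myeloperoxidase of the primary granule, was at 56.5, 7.71, 12.9 and 721 RPKM in the 4 dKO_Flt3ITD libraries. Elane, the neutrophil elastase gene, was at 8.78, 0.117, 0.0440 and 105 RPKM there and was listed at 0 in all control libraries. Prtn3, at 55.3, 0.332, 9.44 and 273 RPKM, and Ctsg, at 184, 42.6, 15.3 and 218 RPKM, were also highest in library 4. Csf3r of the same list was not, at 6.64, 20.1, 33.4 and 16.4 RPKM, so the sum does not describe each member.

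The summed level of the early thymic precursor list did not set this library apart, at 531 RPKM against 528, 572 and 574 RPKM in dKO_Flt3ITD 1, 2 and 3. Members of the list went both ways in it. Flt3, at 70.1 RPKM, Ptprc, at 101.7 RPKM, and Cd24a, at 24.7 RPKM, were the highest of the group there. Single genes of Notch signalling and recombination were low in it, and were named after their values were seen. Notch1 was at 24.8, 29.6, 39.9 and 2.10 RPKM in the dKO_Flt3ITD libraries, and its target Hes1 at 92.9, 125, 64.7 and 6.87 RPKM. Both belong to the same precursor list, so its unchanged sum does not describe each member. Rag2, a subunit of the recombinase that assembles antigen receptor genes, was at 22.4, 40.6, 48.0 and 0.0121 RPKM. The later-thymocyte list (11 symbols, 6 with a row; Bcl11b, Cd2, Cd3e, Trbc1 and Trbc2 had none) summed to 5.43 RPKM in dKO_Flt3ITD 4, 43.3 to 60.7 RPKM in the other dKO_Flt3ITD libraries, 61.2 to 140 in dKO and 16.2 to 43.8 in control. The part of these differences in the low Adamdec1 level of dKO_Flt3ITD 4 was not tested.

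Since Adamdec1 is known from macrophages and dendritic cells, the markers of those cells are given beside it. The macrophage list had a row for 13 of 17 symbols (none for Cd14, Fcgr1, Marco and Mertk) and summed to 99.6 to 251 RPKM in control and 165 to 369 RPKM in dKO. In dKO_Flt3ITD 1, 2, 3 and 4 the sum was 531.5, 105, 178 and 284 RPKM. The dendritic-cell list had a row for 12 of 14 symbols (none for Cd209a and Clec9a) and summed to 56.3 to 496 RPKM in control, 184 to 349 in dKO, and 1947, 94.7, 272 and 569 RPKM in the dKO_Flt3ITD libraries. Both sums overlapped between control and dKO, where Adamdec1 differed by 1294 times. Within dKO_Flt3ITD, both sums were lowest in library 2, which had the highest Adamdec1 level, and highest in library 1. All 10 tested macrophage markers had a positive log2 difference in dKO against control, with a median of 1.04 against 0.01 over all tested genes, and 3 of 5 dendritic-cell markers did, with a median of 0.01. The part of such cells in the level of Adamdec1 was not tested.

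Of the single markers, Lyz2, lysozyme, was at 46.4 to 164 RPKM in control, 82.9 to 191 in dKO and 47.6 to 337 in dKO_Flt3ITD libraries, and Cd74, the class II invariant chain, at 22.1 to 270, 71.4 to 138 and 16.8 to 996. No macrophage or dendritic-cell marker passed the limma test in dKO against control (0 of 10 and 0 of 5 tested, against 1.02% of all tested genes). At an unadjusted p under 0.05 there were 1 and 2, where 981 of all 10690 tested genes were, and voom on the recovered reads called 0. In dKO_Flt3ITD against control, Spic, a transcription factor of red pulp macrophages, and Emr1, the F4/80 antigen, were called higher. These were 2 of 10 tested, where 1.5% of all tested genes were called in either direction and 0.992% upward. The log2 differences of Spic and Emr1 were 3.63 and 3.50, with adjusted p = 0.0478 and 0.0481 by limma, and voom called 0 of the 10. Of the 10 markers, 7 had a positive difference, with a median of 0.33 against 0.00 over all tested genes. In dKO_Flt3ITD 1, 2, 3 and 4 Spic was at 66.9, 12.9, 15.2 and 18.0 RPKM. Emr1 was at 31.8, 2.48, 2.50 and 43.4 RPKM, so its rise rested mainly on libraries 1 and 4.

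Among the other marker lists, none had a called member in dKO against control by limma (0 of 27 tested, against 1.02% of all tested genes). Before adjustment 8 of the 27 had a limma p under 0.05, a larger share than the 981 of all 10690 tested genes, and voom called 0. In dKO_Flt3ITD against control limma called 1 of the 27 up and 2 down, where it called 0.992% of all tested genes up and 0.505% down. The granulocyte protease gene Ctsg was called up (log2 difference 3.61, limma adjusted p = 0.0247). Ccr9 and Cd24a of the precursor list were called down (-3.26, limma adjusted p = 0.00543, and -2.98, limma adjusted p = 0.0327). Before adjustment 14 of the 27 had a limma p under 0.05 in this comparison, a larger share than the 1435 of all 10690 tested genes. By voom 0 of the 27 were called. The mast-cell list (4 of 9 symbols with a row) summed to 17.1 to 122 RPKM in control, 121 to 319 in dKO and 189 to 567 in dKO_Flt3ITD. The B-lineage list (3 of 8) summed to 55.5 to 151 RPKM over all 12 libraries. The list for thymic stroma and fibroblasts (2 of 11) stayed between 1.36 and 10.8 RPKM in every library. No marker with a row was at 0 in every library.

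No tested gene around Adamdec1 passed the test in any comparison. Within 1 Mb on either side, 45 other genes are annotated, 17 of them protein coding. Of these, 7 had a row and 6 were tested. By limma, 0 of 6 passed in dKO against control, where 1.02% of all tested genes did. In dKO_Flt3ITD against control 0 of 6 passed, where 1.5% did, and in dKO_Flt3ITD against dKO 0 of 6 passed, where 0% did. At an unadjusted p under 0.05 there were 0, 2 and 1, and voom called 0 in each. The median log2 differences of the 6 genes were -0.69, -1.16 and -0.61, while those of all tested genes were 0.01, 0.00 and 0.00. A difference that misses the threshold does not show that these genes were equal between groups.

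Adam28, the nearest gene of the table, codes for a membrane-anchored ADAM protease known from lymphocytes. Its level was 3.28, 0.935, 1.27 and 2.38 RPKM in control, 0.821, 1.75, 1.04 and 1.47 in dKO and 0.732, 1.60, 1.88 and 1.58 in dKO_Flt3ITD libraries. The groups overlapped, and the log2 difference of dKO against control was -0.33 with a standard error of 0.45 (limma adjusted p = 0.930). In dKO_Flt3ITD it was -0.23 (limma adjusted p = 0.880). In the same pools of cells, the log2 difference of dKO against control was 9.54 for Adamdec1. That of Adam28, at a low level of 0.732 to 3.28 RPKM, was smaller than its standard error. Whether the same cells held both transcripts is not known.

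Of the more distant genes, Slc25a37, the mitochondrial iron importer mitoferrin-1, had means of 19.4 ± 8.66, 23.6 ± 8.94 and 10.6 ± 6.30 RPKM (SD, n = 4) in the groups control, dKO and dKO_Flt3ITD. The differences against control on the log2 scale were 0.32 and -0.88 (limma adjusted p = 0.940 and 0.475). Stc1, which encodes the secreted glycoprotein stanniocalcin-1, was at 0.0287 to 2.67 RPKM in dKO and listed at 0 in 3 of the 4 dKO_Flt3ITD libraries. On the other side, the cell-cycle gene Cdca2 and the genes Kctd9 and Gnrh1, the last encoding the precursor of gonadotropin-releasing hormone, had log2 differences of -0.69, -0.98 and -1.10 in dKO (limma adjusted p = 0.855, 0.837 and 0.715). Gnrh1 was listed at 0 in every dKO_Flt3ITD library. Dock5 had a row with 0.00 to 4.93 RPKM and was not tested.

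**Figure D2:**
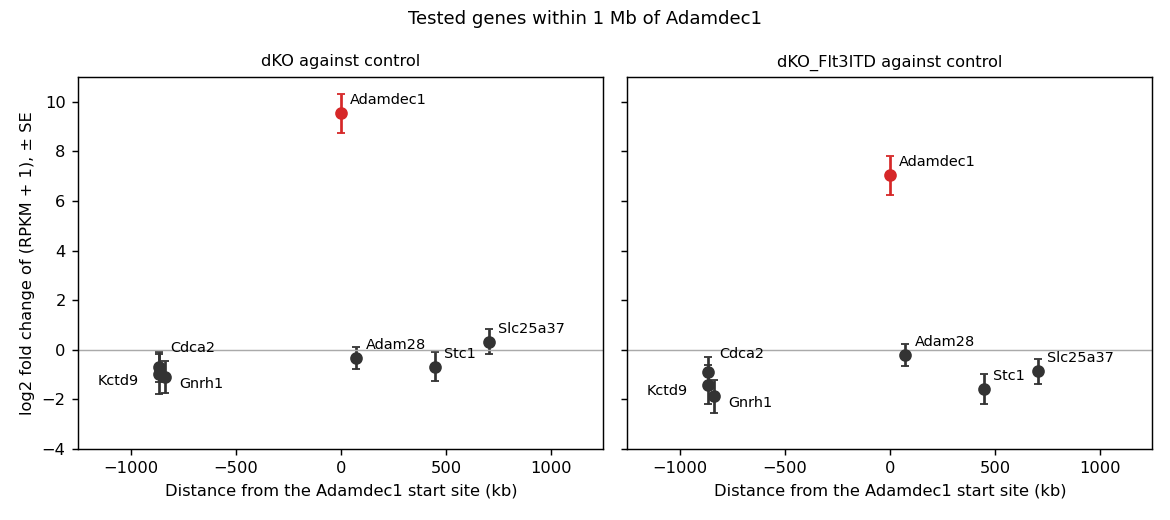
The log2 fold change of RPKM + 1 with its standard error (y axis) against the distance in kb of each gene's start site from that of Adamdec1 (x axis), for dKO against control on the left and dKO_Flt3ITD against control on the right. Adamdec1 stands at 9.54 and 7.03, while the 6 other tested genes lie between -1.89 and 0.32.

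None of the other tested ADAM family members passed the test. Of 33 other family symbols, 11 had a row and 5 were tested, and limma called 0 of 5 in each of the 3 comparisons, where it called 1.02%, 1.5% and 0% of all tested genes. With 5 genes, a count of 0 is close to those shares. At an unadjusted p under 0.05 there were 0, 1 and 1, and voom called 0. The median log2 differences of the 5 genes were 0.23, 0.19 and 0.10.

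The sheddases Adam10 and Adam17 were the most abundant of these in every group but remained far below Adamdec1 in dKO. Adam10 had means of 48.8 ± 9.76, 67.1 ± 16.4 and 55.7 ± 9.42 RPKM (SD, n = 4) in control, dKO and dKO_Flt3ITD libraries, with log2 differences of 0.44 and 0.19 against control (limma adjusted p = 0.778 and 0.844). Adam17 stood at 23.3 ± 6.65, 23.0 ± 6.73 and 17.5 ± 4.84 RPKM, with log2 differences of -0.02 and -0.39 (limma adjusted p = 0.995 and 0.708). In control libraries both were well above Adamdec1 at 1.23 ± 1.07 RPKM, and in dKO libraries the order was turned round.

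Adam15 and Adam9, membrane-anchored members with cell adhesion roles, were low. Adam15 was at 3.75, 1.31, 4.86 and 13.6 RPKM in the dKO_Flt3ITD libraries, the last value being in the library with the least Adamdec1. Its mean was 0.960 ± 0.611 RPKM in control and 1.27 ± 0.572 in dKO (SD, n = 4). The log2 difference of dKO_Flt3ITD against control was 1.55 with a standard error of 0.55 (limma adjusted p = 0.207). Adam9 had means of 2.30 ± 2.85, 3.64 ± 2.33 and 6.55 ± 3.74 RPKM in control, dKO and dKO_Flt3ITD (SD, n = 4). The remaining members with a row, Adam1a, Adam3, Adam8, Adam11, Adam19 and Adam22, reached at most 4.69 RPKM in any library and were too low to be tested.

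**Figure D3:**
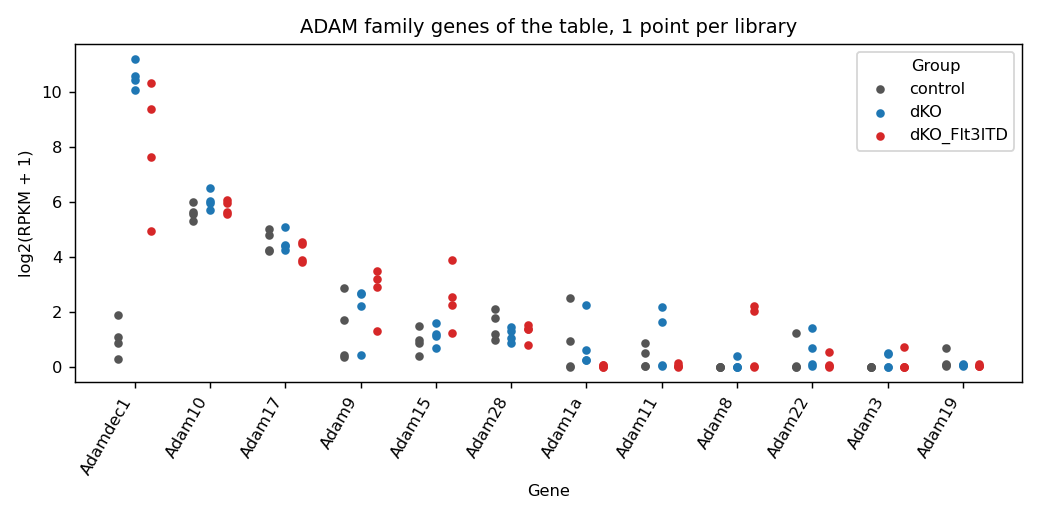
The log2(RPKM + 1) of Adamdec1 and of the 11 other ADAM genes with a row (x axis), with 1 point per library coloured by group. Adamdec1 is the only gene whose control points (0.214 to 2.73 RPKM) and dKO points (1076 to 2347 RPKM) stand far apart.

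Related protease systems were examined in the same fit. Of 24 symbols of the ADAMTS family of secreted matrix proteases, 9 had a row and 3 were tested. The widest difference was that of Adamts6 at -1.30 in dKO against control (limma adjusted p = 0.680). Of 28 symbols of matrix metalloproteases and their inhibitors, 9 had a row and 4 were tested. Here Mmp11 had the widest difference, 1.34 in dKO_Flt3ITD against control (limma adjusted p = 0.343). Limma called 0 of these 7 genes in each of the 3 comparisons, against 1.02%, 1.5% and 0% of all tested genes, with 0, 1 and 0 at an unadjusted p under 0.05 and 0 by voom.

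ADAM proteases need partners, among them the tetraspanins that carry Adam10, the iRhoms that carry Adam17 and the convertases that remove the prodomain. Of 13 such symbols 10 had a row, 9 were tested and limma called 0, against the same 1.02%, 1.5% and 0% of all tested genes, with 0, 2 and 0 at an unadjusted p under 0.05 in the 3 comparisons and 0 by voom. The convertase gene Furin had means of 5.12 ± 1.51, 4.85 ± 0.892 and 3.70 ± 1.11 RPKM (SD, n = 4) in control, dKO and dKO_Flt3ITD libraries. Tspan17 was listed at 0 in all control libraries and was at 0, 0.724, 3.20 and 4.71 RPKM in the dKO_Flt3ITD libraries, with a log2 difference of 1.34 (limma adjusted p = 0.325). Of 15 symbols of EGF-family ligands and ERBB receptors, shedding substrates and their partners, 8 had a row and 2 were tested. Limma and voom called 0 of them in each comparison, limma's shares over all genes being 1.02%, 1.5% and 0%, and 1 was at an unadjusted p under 0.05 in dKO_Flt3ITD against control. Hbegf had log2 differences of 0.77 and 1.51 against control (limma adjusted p = 0.843 and 0.307), Egf reached at most 1.64 RPKM and Egfr at most 0.120 RPKM.

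Several genes had a pattern over the 12 libraries close to that of Adamdec1. Likeness was measured as Pearson's r of log2(RPKM + 1) over 12 libraries among the 8230 tested genes with a mean of at least 5 RPKM in their highest group. The points share groups and library depth, and the step from control to mutant dominates r, so these values describe and are given without p. The 10 highest were Efna1 (0.978), Ptprr (0.963), Rnase12 (0.955), Casp12 (0.941), Il4 (0.934), Igf2r (0.929), S1pr1 (0.929), Igtp (0.923), Rnase10 (0.917) and Abcc4 (0.916). Ranking by Spearman's rho kept 4 of the 10, leaving out dKO_Flt3ITD 4 kept 5 and leaving out dKO_Flt3ITD 1 kept 6.

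Efna1, which encodes a membrane-tethered ligand of Eph receptors, matched Adamdec1 most closely. It was at 0.00, 0.0611, 0.171 and 0.0422 RPKM in control, 75.3, 39.7, 76.6 and 77.3 in dKO and 5.34, 67.8, 18.5 and 3.31 in dKO_Flt3ITD. It had the same order of the 4 dKO_Flt3ITD libraries as Adamdec1, with library 2 at the dKO level and library 4 lowest, and dKO 2 was the lowest dKO library for both. Its Spearman's rho with Adamdec1 was 0.993 over 12 libraries.

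Rnase12 and Rnase10, neighbouring genes of the ribonuclease A family, lie on chromosome 14 as well, but from 51056698 to 51057661 and from 51007751 to 51010758, outside the 1 Mb window. Rnase12 was the other gene of these 10 with values of similar size. It was at 0.406, 1.57, 1.84 and 17.3 RPKM in control, 1871, 649.7, 718.5 and 843 in dKO and 191, 1566, 519 and 185 in dKO_Flt3ITD. Rnase10 was at 8.05, 61.5, 27.6 and 16.6 RPKM in dKO_Flt3ITD, against 52.2 to 195 in dKO and 0.0221 to 9.02 in control. In both genes dKO_Flt3ITD 2 was the highest library of its group, as in Adamdec1.

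The low level in dKO_Flt3ITD libraries 1 and 4 recurred in some of these genes and not in others. The MAP-kinase phosphatase gene Ptprr was at 1.93, 18.2, 17.6 and 2.30 RPKM, Igf2r, the mannose 6-phosphate receptor, at 7.65, 33.0, 16.7 and 4.54 RPKM, and the efflux pump gene Abcc4 at 4.07, 24.0, 24.1 and 3.01 RPKM. The cytokine gene Il4 did not show it to that extent, with 106, 278, 96.9 and 76.5 RPKM in dKO_Flt3ITD against 75.5 to 125 RPKM in dKO. Il4 in dKO_Flt3ITD was thus at or above the dKO level in libraries where Adamdec1 was far below it. The sphingosine 1-phosphate receptor gene S1pr1 was at 1.46 to 7.35 RPKM in dKO_Flt3ITD and 3.18 to 10.97 RPKM in dKO. The interferon-inducible GTPase gene Igtp, at 163, 175, 173 and 68.2 RPKM, was low in library 4 but not in library 1. The caspase gene Casp12, at 7.60, 42.7, 18.2 and 12.9 RPKM, was lower in libraries 1 and 4 than in 2 and 3. Its step between libraries 1 and 3 was narrower than that of Adamdec1.

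**Figure D4:**
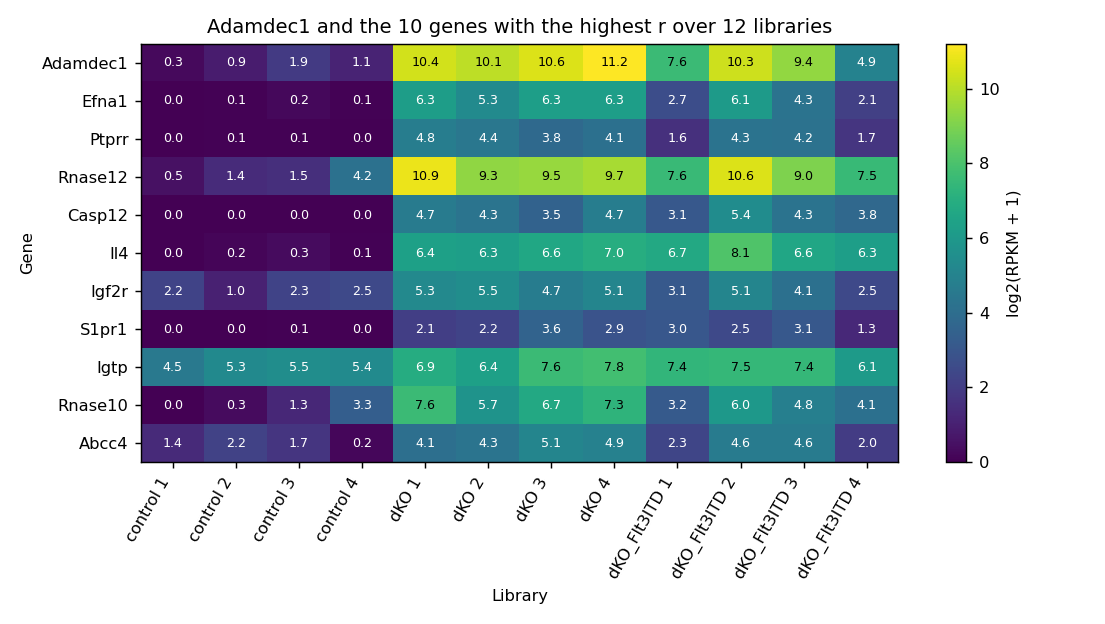
Heat map of log2(RPKM + 1), printed in each cell, for Adamdec1 and the 10 genes with the highest r (rows) in 12 libraries (columns). In dKO_Flt3ITD 4 Adamdec1 (29.8 RPKM) and Efna1 (3.31 RPKM) are at their lowest mutant level, while Il4 (76.5 RPKM) is close to its dKO values.

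Adamdec1 was set beside the 84 genes that limma called higher in dKO than in control, 0.786% of those tested, Adamdec1 being among them. The list was chosen on the dKO libraries, which enter the difference below, so its values describe only, and voom called 3 genes in that comparison. None of the other 83 genes had a lower log2 difference of dKO_Flt3ITD minus dKO than Adamdec1 at -2.50. Their median was -0.26, against 0.00 over all tested genes, and 54 of the 83 were negative. The 4 dKO_Flt3ITD libraries had the same order as in Adamdec1 in 11 of the 83 genes. The shares of all tested genes with a negative difference or with this order were not taken, so nothing is read from these counts. Library 4 was the lowest of the group in 42.2% of the 83 genes and in 23.9% of all tested genes.

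Within the 8 mutant libraries, likeness was also measured after subtracting each group's mean, so that the step between groups no longer counts. The highest r of these deviations over 8 libraries were those of Rcc2 (0.981), Ifi203 (0.977), Mrfap1 (0.967), Pdgfrb (0.956), Ddx60 (0.956) and Lax1 (0.952). The lowest were those of Mpo (-0.967), Mt1 (-0.967), Myadm (-0.958) and Pim2 (-0.951). The libraries share depth and group, and the deviations of dKO_Flt3ITD 4 are the widest. Without that library the 6 highest ranged from 0.826 for Ddx60 to 0.930 for Rcc2, and the 4 lowest from -0.919 for Mt1 to -0.792 for Pim2.

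Ifi203 and Ddx60 belong to the interferon-inducible genes. Ifi203 was at 137, 240, 220 and 79.3 RPKM in dKO_Flt3ITD and 172 to 224 RPKM in dKO, and Ddx60 at 17.0, 43.9, 49.6 and 4.93 RPKM in dKO_Flt3ITD and 13.4 to 22.2 RPKM in dKO. Both were lowest where Adamdec1 was lowest. They were chosen for their high r over these libraries, so this is no separate observation. Rcc2, a regulator of mitosis, was at 29.0, 41.7, 33.7 and 20.2 RPKM in dKO_Flt3ITD, and the lymphocyte adaptor gene Lax1 at 46.1, 100.4, 80.0 and 21.6 RPKM. These genes differed by far less than Adamdec1 between the same libraries.

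The genes with the lowest r were high in dKO_Flt3ITD 4. The kinase gene Pim2 was at 9.89, 3.81, 2.06 and 89.2 RPKM in the dKO_Flt3ITD libraries, the metallothionein gene Mt1 at 14.02, 0.792, 2.76 and 74.6 RPKM, and Myadm, a myeloid-associated membrane protein gene, at 9.37, 1.57, 5.73 and 43.5 RPKM. In dKO, Adamdec1 was highest in library 4 and Mpo lowest there, with 105, 67.6, 53.3 and 15.4 RPKM in libraries 1, 2, 3 and 4. These genes were chosen for their low r over the same libraries, so their opposite pattern is no separate observation. The part of these genes in the level of Adamdec1 was not tested.

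**Figure D5:**
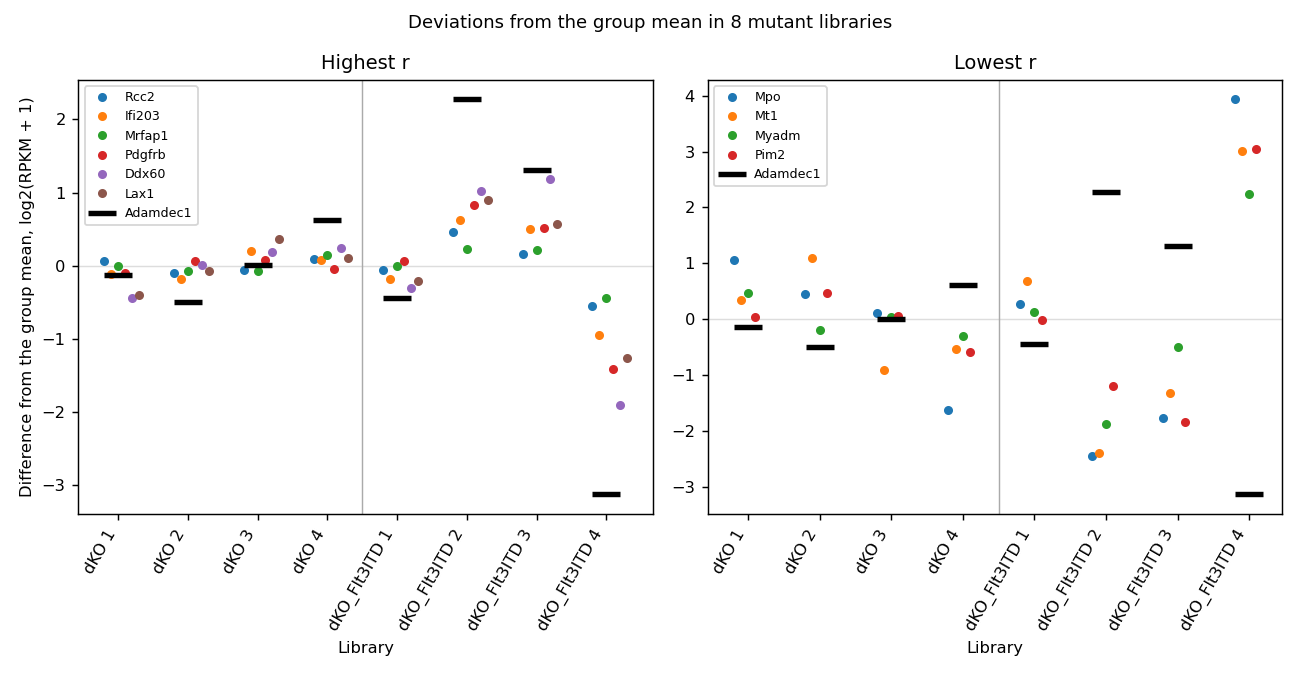
Deviation of log2(RPKM + 1) from the group mean (y axis) in the 8 mutant libraries (x axis), for Adamdec1 (black bars) with the 6 genes of highest r on the left and the 4 of lowest r on the right (coloured points). In dKO_Flt3ITD 4, where Adamdec1 is at 29.8 RPKM, Mpo reaches 721 RPKM and lies on the opposite side of the group mean.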

How the data were processed

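The authors deposited 1 table of RPKM values for 13016 genes in 12 libraries. Per the submitters' processing notes the tools were TopHat2 2.0.10, SAMtools 0.1.19 and HTSeq 0.5.4p5 on mm10. How library size, gene lengths and the gene selection were set, and whether counting used strand, is not given in the sources used here. The values are whole multiples of a step per gene and library, so reads were recovered for 100% of genes (tolerance 0.001 read). The totals of 13624672 to 33994953 reads per library differ from the divisor the authors' values imply, which was 0.801 to 1.15 times as large.

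The 10690 genes that reached 1 RPKM in 4 or more libraries were tested with limma 3.58.1 (R 4.3.3). The model held the 3 group means of log2(RPKM + 1) over the 12 libraries, leaving 9 degrees of freedom, with a variance trend on mean level. Genes were called at a Benjamini-Hochberg adjusted p under 0.05 over all tested genes. At an unadjusted limma p under 0.05 there were 981 genes in dKO against control, 1435 in dKO_Flt3ITD against control and 824 in dKO_Flt3ITD against dKO. A fold change on this scale understates that of low genes. The script was tested on simulated data. Other settings tried were pseudocounts of 0.1 and 10, no filter and a filter of 5 RPKM, median-ratio scaling, quantile normalization, no trend, only the 8 libraries compared, a replicate block, voom on the recovered reads, and leaving out each library. For the spread of Adamdec1, leaving out libraries was added after seeing the data.

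Named genes are Adamdec1, the genes of the labelled alleles, the genes within 1 Mb with a row, of each list the called members or else the one with the widest log2 difference, the 5 most abundant ADAM genes, the genes most like Adamdec1, and the 5 genes above and below it in dKO. Kit, Ptprc, Furin, Notch1, Hes1, Elane, Lyz2, Cd74, Egf, Egfr and the lesser ADAM genes were named after their values were seen. Gm and Rik symbols were skipped. The gene and all lists were chosen with earlier results of these data known.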

Additional observations from a re-analysis of the deposited data

Results flagged for a closer look

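Among 101 groups of 4 libraries whose values are reported, 12 held 1 library far from the other 3 by Dixon's test at the 95% level. A rate of about 1 in 20 would hold for normally distributed values of genes chosen without regard to them. These are RPKM values without a log scale, of genes partly chosen for their pattern over libraries. The 12 groups are therefore not set against that rate. Adamdec1 itself met the criterion in no group. In dKO_Flt3ITD 4, the library with the least Adamdec1, Mpo stood apart at 721 RPKM, Pim2 at 89.2 RPKM and Igtp, as the lowest, at 68.2 RPKM. Mpo and Pim2 were listed for their low r with Adamdec1 and Igtp for its high r. That library weighs heavily in r, so their standing apart there is no separate observation. In dKO_Flt3ITD 2, the library of its group with the most Adamdec1, Il4 stood apart at 278 RPKM. In dKO_Flt3ITD 3, Kctd9 stood apart at 15.5 RPKM and Stc1 at 0.184 RPKM. For Stc1 the other 3 libraries were listed at 0, so any level above 0 would have met the criterion. In dKO 1, Rnase12 at 1871 RPKM and Adam17 at 32.9 RPKM were far above the rest. In dKO 2, Efna1 was far below the rest at 39.7 RPKM. In control 4, Rnase12 at 17.3 RPKM, Rnase10 at 9.02 RPKM and Stc1 at 10.9 RPKM were far above the rest. The cause of these values was not tested.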

How the results depend on the processing

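The log2 difference of Adamdec1 between dKO and control was 9.54 and became 10.57 with a pseudocount of 0.1, 7.10 with a pseudocount of 10 and 10.79 by voom. Its differences kept their direction under every alternative run. With single libraries left out they ranged from 9.29 to 9.83 for dKO against control, from 6.28 to 8.08 for dKO_Flt3ITD against control and from -3.26 to -1.46 for dKO_Flt3ITD against dKO. The SD of Adamdec1 over dKO_Flt3ITD libraries was 2.37 and ranged from 1.38 without dKO_Flt3ITD 4 to 2.88 without dKO_Flt3ITD 1, an alternative chosen after seeing the data. With a replicate block they were 9.54, 7.03 and -2.50, and 85, 116 and 0 genes were called. Deviations of same-numbered libraries from their group means correlated at -0.147 to 0.126. No value for differently numbered libraries stands beside these, so they do not settle whether same-numbered libraries were handled together. The labels give only the number.

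Counts of called genes moved more. For dKO against control, 109 genes became 64 without a filter, 3 by voom, and 58 to 150 with single libraries left out, the low end being 67, 63 and 58 without dKO 1, 3 and 4. For dKO_Flt3ITD against control, 160 became 91 without a filter, 27 by voom, and 94 to 187 with single libraries left out, with 94 to 102 when a control library or dKO_Flt3ITD 1 or 2 was absent. For dKO_Flt3ITD against dKO, 0 became 1 with a filter of 5 RPKM, without a filter, with only the 8 libraries compared and with a pseudocount of 10, 5 with quantile normalization, and 0 to 6 with single libraries left out (6 without dKO_Flt3ITD 3, and 2 without control 1 or dKO 1). Of the 10 genes most like Adamdec1, 4 remained by Spearman's rho and 5 to 9 with single libraries left out.

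Of 1026 alternative values for 48 other named results, 17 had the opposite sign, all for differences that passed no test. With single libraries left out the values ranged from -0.20 to 0.13 for Adam17 and from -0.31 to 0.62 for Mmp11 in dKO against control, from -0.17 to 0.58 for Pcsk7 in dKO_Flt3ITD against control, and from -0.81 to 0.19 for Cdca2, -1.26 to 0.0895 for Kctd9 and -1.10 to 0.0869 for Pcsk7 in dKO_Flt3ITD against dKO. For Pcsk7 in that comparison voom gave 0.53. The cause of these changes was not tested. Control values of Adamdec1 rest on 14 to 164 reads, which limits the precision of its fold against control.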
